A study of Homo sapiens with 12 samples.

Results

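Secreted peptide hormones and activins are messengers that a cell releases to act on its neighbours or on distant tissues. The genes described are GAL, SPX, ADM, EDN1, INHBA, INHBB, INHBE, GDF15 and PTHLH, 9 genes chosen by name from a series in which 10729 genes were tested. They were chosen with results of these arrays known, so the values that set Ota against control are given as a description and no p-value is attached to them. The platform annotation gave 8 of the 9 genes at least 1 probe set with that symbol alone, 16 probe sets in all, and PTHLH, the gene of parathyroid hormone-related protein, was not analysed here. Of the 8 genes, 6 passed the filter on low values, which asked for 3 or more of the 12 arrays with a log2 value above 4. EDN1 and INHBB did not pass it and are given by their levels only.

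Expression was measured on 12 Affymetrix arrays of HK-2 cells, a human kidney proximal tubule epithelial line that was immortalized in culture. The 4 groups of 3 arrays were cells given a high dose of the compound labelled Ota for 72 h, control cells given the vehicle for 72 h, Ota cells at 24 h and control cells at 24 h. The labels spell out neither the compound's name nor its amount, nor the vehicle. All groups had been seeded 24 h earlier, were treated near 90% confluency, and were kept in a defined medium that holds epidermal growth factor (10 ng/ml), hydrocortisone and insulin. One immortalized line stands for the tubule here. The arrays are labelled biological replicates, and nothing more says that the cultures were separate, so a p-value reflects how much these arrays vary, which may be technical.

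Galanin and spexin, encoded by GAL and SPX, are small neuropeptides that share galanin receptors. Adrenomedullin (ADM) widens blood vessels and endothelin-1 (EDN1) narrows them, and both are made by kidney cells. Activins are dimers of inhibin beta chains, encoded by INHBA, INHBB and INHBE among others, that signal through receptor kinases and SMAD proteins. GDF15, a distant member of the same TGF-beta family, is a blood-borne signal of cell stress that acts on the brainstem through GFRAL. All of them are made as longer precursors that proteases cut.

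Array-wide measures, taken over the tested genes or over control probe sets, differed between Ota and control cells and bear on each direction below. The median of the tested genes was 7.68 ± 0.05 on Ota arrays and 7.96 ± 0.02 on control arrays at 72 h, and 7.40 ± 0.16 and 7.97 ± 0.05 at 24 h (SD, n = 3 each). The probe sets for poly-A spike-ins, bacterial transcripts used as a labelling control, read 0.89 (72 h) and 1.85 (24 h) log2 units higher with Ota. The 18S ribosomal RNA probe sets read 1.34 and 1.58 higher in the same order. Each of these 6 differences had groups that did not overlap and an exact two-sided permutation p of 0.1, which is the lowest possible with 3 arrays a side. The median log2 difference of all tested genes between Ota and control was -0.11 at 72 h and -0.24 at 24 h. With no filter on low values, over 19775 genes, it was 0.015 and 0.029, so the lower medians belong to the filtered genes. Centring each array on the median of its tested genes shifted the medians of the tested genes by 0.28 and 0.56. Setting every array to equal spike-in levels, called the spike-in scaling below, shifted them by -0.89 and -1.85. Epithelial markers were all past the filter (8 of 8), with a mean level of 10.41 to 10.81 on Ota arrays and 11.26 to 11.45 on control arrays at 72 h. They did not move alike. With Ota at 72 h, against controls, CDH1 averaged 5.62 (8.80), KRT19 10.24 (11.54), CLDN1 13.03 (14.02), KRT18 12.17 (12.65) and CDH2 8.68 (9.05). EPCAM averaged 13.19 (13.30), TJP1 10.99 (10.97) and KRT8 11.28 (10.68). Of 11 proximal tubule markers with a probe set PAX8 alone passed, with a mean of 7.99 on Ota arrays and 9.58 on control arrays at 72 h and of 7.54 and 10.08 at 24 h, and LRP2, CUBN, AQP1 and SLC34A1 stayed under 4 on all arrays. Of the markers of other cells with a probe set, 0 of 8 endothelial, 1 of 6 leukocyte (LCP1), 3 of 8 fibroblast (DCN, LUM and COL1A1) and 1 of 8 collecting duct markers (AQP3) passed. LCP1 averaged 4.72 with Ota and 3.43 in controls at 72 h, and 4.01 and 3.53 at 24 h. The leukocyte marker ITGAM, which did not pass, exceeded 4 on 2 arrays and averaged 4.45 with Ota and 2.38 in controls at 24 h. AQP3 averaged 8.31 with Ota and 6.29 in controls at 72 h, and 8.02 and 6.93 at 24 h. Of the fibroblast markers, DCN averaged 10.09 with Ota and 9.55 in controls at 72 h, and 11.73 and 11.34 at 24 h. LUM averaged 8.81 with Ota and 7.26 in controls at 72 h, and 9.73 and 9.04 at 24 h. COL1A1 averaged 7.63 with Ota and 7.08 in controls at 72 h, and 6.18 and 8.11 at 24 h. The part of these markers in the results was not tested. In RNA from a pool of cells, fewer cells that express a gene and less RNA per cell cannot be told apart.

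The sequences just before the starts of ADM and GDF15 are shown because these were the genes that lay higher with Ota by a like amount at both times in the values as deposited. RefSeq (GRCh38.p14) gave such windows for 7 of the 9 genes. Each line holds the 250 bases before the start, 5′ to 3′ on the plus strand, at chr11:10304823-10305072 for ADM and chr19:18385908-18386157 for GDF15. Capitals mark TATAAA and GGGCGG, the TATA box and GC box letters, on either strand.
ADM: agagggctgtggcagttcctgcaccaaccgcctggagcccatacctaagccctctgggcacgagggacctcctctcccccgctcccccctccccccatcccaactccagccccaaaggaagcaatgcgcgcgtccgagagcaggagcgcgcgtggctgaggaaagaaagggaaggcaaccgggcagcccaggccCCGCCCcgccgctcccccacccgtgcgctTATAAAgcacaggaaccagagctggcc
GDF15: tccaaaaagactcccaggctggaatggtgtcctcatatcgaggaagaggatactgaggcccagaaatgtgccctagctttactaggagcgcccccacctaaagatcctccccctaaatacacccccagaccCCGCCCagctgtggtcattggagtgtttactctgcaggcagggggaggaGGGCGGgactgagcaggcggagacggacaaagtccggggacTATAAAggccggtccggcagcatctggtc
Both windows hold 1 TATAAA match, which starts at base -27 for ADM and -29 for GDF15, and such a match is found in 10.7% of all 35116 windows. The GC box letters match once for ADM and 2 times for GDF15, against 42.6% of all windows with at least 1 match. Neither window holds a match to ACGTG, the core letters of a hypoxia response element (18.5% of windows do), nor to TGATGNAA, letters bound by ATF4 with C/EBP proteins (3.14%). These matches describe the letters only.

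Galanin and spexin parted from their controls in opposite directions, and by more at 72 h than at 24 h. GAL had log2 values of 8.46, 8.96 and 8.41 on the Ota arrays at 72 h, against 3.51, 2.53 and 3.39 on the control arrays. At 24 h its values were 9.84, 10.16 and 9.25 with Ota, against 7.40, 7.49 and 6.99 in controls. The Ota arrays lay above all controls at both times. The log2 difference was 5.46 ± 0.30 (SE), or 44.2-fold, at 72 h and 2.45 ± 0.30, or 5.47-fold, at 24 h. The 72 h difference ranked 5 from the top of all genes. It rests on control arrays that were all under 4, near background, so its size is uncertain. The other GAL probe set stayed between 2.69 and 3.39 on all arrays and gave no signal to compare.

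SPX had values of 7.09, 7.13 and 7.26 on the Ota arrays at 72 h, against 12.96, 13.20 and 13.41 on the control arrays. At 24 h it had 10.03, 10.01 and 10.59 with Ota, against 11.23, 11.13 and 12.01 in controls. Ota arrays were thus below all controls at both times, with a wide gap at 72 h. The log2 difference was -6.03 ± 0.24, or 65.3-fold lower, at 72 h, which ranked 4 from the bottom of all genes, and -1.25 ± 0.24 at 24 h. The other SPX probe set gave -5.75 and -1.12 in the same order, so the pair differed little in either comparison.

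Adrenomedullin was higher in Ota cells at both times. ADM values were 8.74, 8.37 and 8.33 with Ota at 72 h, against 6.21, 5.92 and 6.12 in controls. At 24 h they were 8.17, 7.54 and 7.90 with Ota, against 5.43, 5.91 and 5.41 in controls. The groups did not overlap at either time. The log2 difference was 2.40 ± 0.20 at 72 h and 2.29 ± 0.20 at 24 h, about 5.26-fold and 4.88-fold. The effect at 72 h minus that at 24 h was 0.11 ± 0.29 (95% interval -0.52 to 0.74), but 1.07 with the spike-in scaling.

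Endothelin-1 was near the filter level or under it on all arrays. The brightest EDN1 probe set had values of 3.50, 3.72 and 3.87 with Ota at 72 h, against 3.95, 3.88 and 3.88 in controls, and of 4.51, 3.91 and 4.22 with Ota at 24 h, against 3.88, 2.82 and 3.84 in controls. Only 2 arrays, both of Ota cells at 24 h, exceeded 4. With quantile normalization EDN1 passed the filter and lay past the threshold at 24 h (0.87). With no filter its 24 h value was 0.70 and not past it. A second EDN1 probe set read 3.86, 3.95 and 2.70 with Ota at 24 h and at most 2.87 on the other 9 arrays. The last one read 2.03 to 2.06 on all arrays.

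GDF15 was higher with Ota at both times in the values as deposited. It had values of 12.99, 12.48 and 13.82 with Ota at 72 h, against 11.81, 11.36 and 12.32 in controls. The 24 h values were 11.19, 10.58 and 11.41 with Ota, against 9.74, 9.62 and 9.46 in controls. The lowest Ota array lay above the highest control array at each time, at 72 h by a narrow margin. The log2 difference was 1.27 ± 0.34 at 72 h and 1.45 ± 0.34 at 24 h, or 2.40-fold and 2.74-fold. Set against the control of the same replicate number, the Ota arrays of 72 h differed by 1.17, 1.13 and 1.50. Those of 24 h differed by 1.45, 0.96 and 1.95. By the rule given below, arrays of equal number deviated together at 24 h but not at 72 h, so the 72 h matching is by number only. With the spike-in scaling the values were 0.38 at 72 h and -0.40 at 24 h, neither past the threshold, so the direction at 24 h depended on the scaling. The signal came from 1 probe set, of a class (_x_at) that can bind several transcripts, and the other 2 GDF15 probe sets read at most 2.78 on any array.

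The activin chains differed from each other. INHBE, the beta E chain, had values of 8.40, 7.08 and 8.52 with Ota at 72 h, against 11.58, 11.56 and 11.83 in controls. At 24 h its values were 2.73, 2.65 and 3.68 with Ota, all under 4, against 6.02, 5.35 and 5.97 in controls. Ota arrays were below all controls at both times. The log2 difference was -3.65 ± 0.38 at 72 h and -2.76 ± 0.38 at 24 h, or 12.6-fold and 6.78-fold lower, and the 24 h size rests on near-background Ota arrays. INHBE has 1 probe set, so no other reading of it was available.

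INHBA is the beta A chain. Its chosen probe set had values of 4.57, 4.60 and 5.05 with Ota at 72 h, against 4.40, 4.32 and 4.37 in controls, and of 4.59, 4.60 and 4.58 with Ota at 24 h, against 5.59, 4.50 and 5.55 in controls. Most of these values lay close to the filter level of 4, so the sizes below are uncertain. The groups were apart at 72 h and overlapped at 24 h, where control replicate 2 lay below all Ota arrays. The log2 difference was 0.37 ± 0.25 at 72 h and -0.63 ± 0.25 at 24 h, and -0.51 and -2.48 with the spike-in scaling, which turned the 72 h direction. Leaving out that control array moved the 24 h value to -0.98, and the place of INHBA past the threshold at 24 h held in 2 of the 12 fits that leave out an array. A second probe set gave 5.56, 4.24 and 5.43 with Ota at 72 h, against 3.04, 3.47 and 3.48 in controls, a difference of 1.74, and -0.52 at 24 h. The last INHBA probe set stayed between 2.99 and 3.33. The beta B chain, INHBB, read 2.20 to 2.29 on all 12 arrays and was not detectable here.

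**Figure D1:**
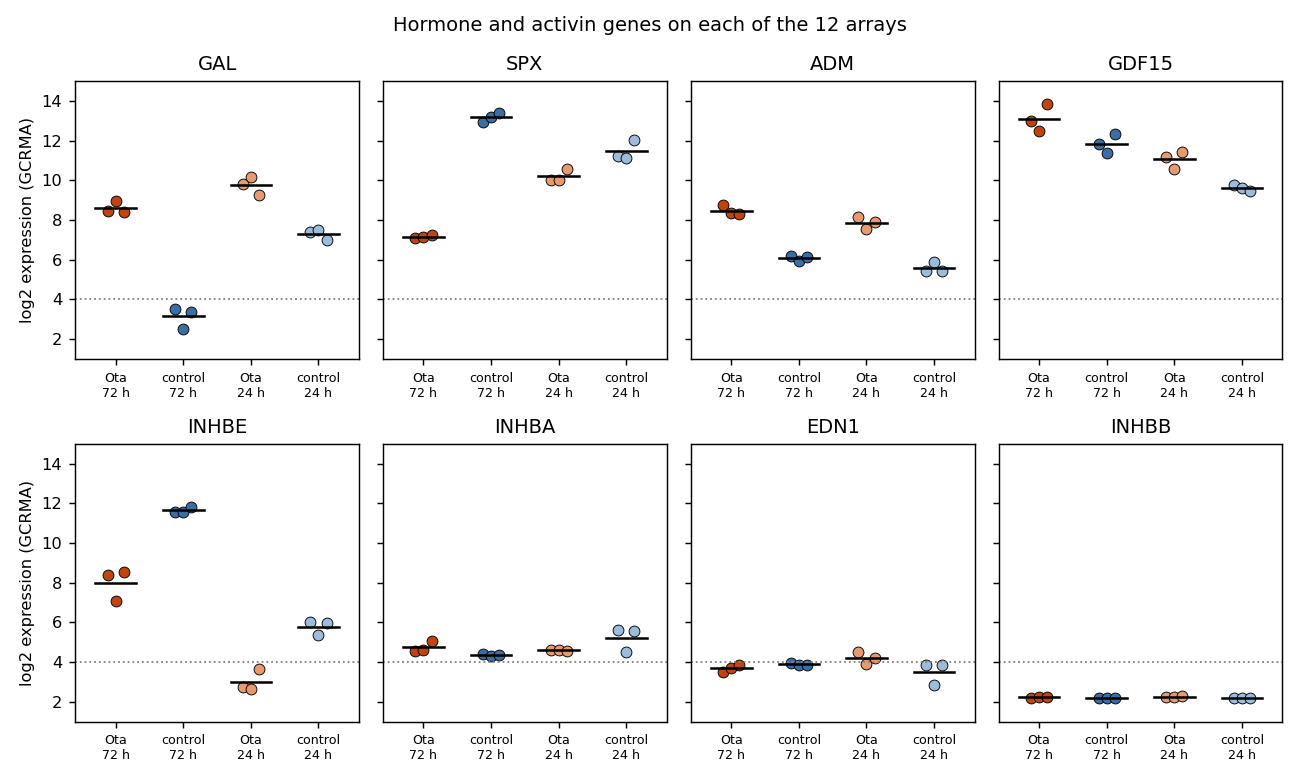
Log2 expression (y axis) of 8 genes on each array (points), with the group mean as a bar, for Ota and control cells at 72 h and at 24 h (x axis); the dotted line is the filter level of 4, and each panel shows the probe set with the highest mean. GAL is high with Ota and under 4 in 72 h controls, SPX is lowest with Ota at 72 h, and INHBE is highest in 72 h controls.

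Counted together, 5 of the 6 tested genes lay past the threshold of the fit at 72 h (GAL, ADM and GDF15 higher, SPX and INHBE lower), where 60.1% of all genes did. At 24 h all 6 did (GAL, ADM and GDF15 higher, SPX, INHBE and INHBA lower), where 61.3% of all genes did. The choice of the genes used these comparisons, so nothing is read from the counts. The Ota and control arrays did not overlap for all 6 genes at 72 h (4 higher, 2 lower), where this held for 73.7% of all genes (32.2% higher, 41.5% lower). They did not overlap for 5 of the 6 at 24 h (3 higher, 2 lower), where it held for 65.7% (24.1% higher, 41.5% lower). Quantile normalization and centring kept the direction of all 6 genes at both times, but INHBA at 24 h was then at -0.24 and -0.065 and no longer past the threshold. At 72 h INHBA came to lie past the threshold upwards with centring (0.66) and with the mean over probe sets (1.06). It also did so without probe sets ending in _s_at or _x_at (1.74) and without control replicate 2 of 24 h (0.37). With the spike-in scaling GAL, SPX, ADM and INHBE kept theirs, but at 24 h GAL (0.60) and ADM (0.44) were no longer past the threshold. SPX (-3.10) and INHBE (-4.61) were then further from 0 than as deposited.

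**Figure D2:**
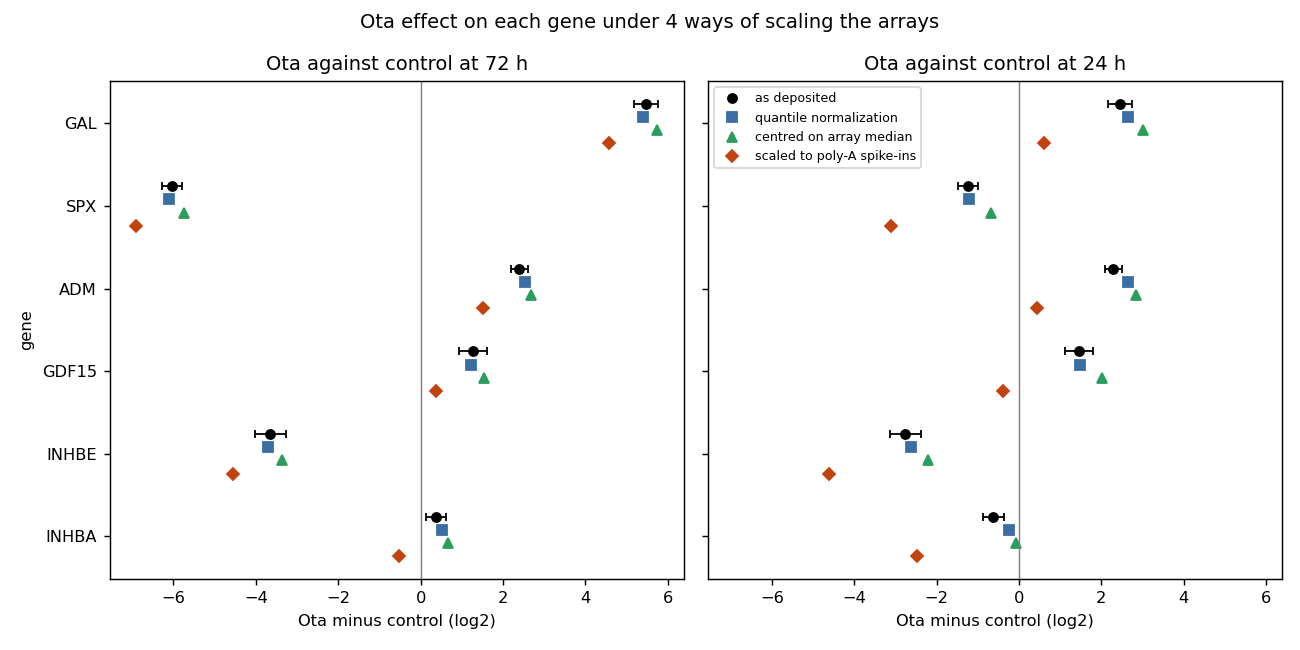
Ota minus control (log2, x axis) for 6 genes (rows) at 72 h and at 24 h, as deposited (circles, bars are 1 SE), quantile normalized, centred on the array median, or with arrays set to equal poly-A spike-in levels. The spike-in scaling moves all genes to the left, by more at 24 h, and puts GDF15 at -0.40 there.

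The difference between the Ota effects, 72 h minus 24 h, was 3.01 ± 0.42 for GAL and -4.78 ± 0.34 for SPX, so both genes lay further from their controls at 72 h. For INHBA it was 1.00 ± 0.36 and for INHBE -0.89 ± 0.53 (95% interval -2.06 to 0.27), or 0.067 with the spike-in scaling. For GDF15 it was -0.19 ± 0.48 (95% interval -1.23 to 0.86). GAL, SPX and INHBA lay past the threshold for this difference, as did 49.5% of all genes (29.6% upwards, 19.9% downwards), and the comparison is made of those the genes were chosen with. Removing 1 of 8 of the 12 arrays in turn ended the place of INHBA there, with values from 0.81 (without control replicate 1 of 24 h) to 1.36 (without control replicate 2 of 24 h, still past) over all 12.

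Time in culture changed several of these genes within each treatment. Within Ota cells, 72 h against 24 h, INHBE rose by 4.98 ± 0.38 on the log2 scale (limma adjusted p = 1.27e-06), the highest rise of all tested genes, from 24 h arrays that were all under 4, so that its size is uncertain. Within control cells it rose by 5.88 ± 0.38 (limma adjusted p = 2.03e-06), again the highest. GDF15 rose with time by 2.04 ± 0.34 in Ota cells and 2.23 ± 0.34 in control cells (limma adjusted p = 3.09e-04 and 6.01e-04).

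GAL and SPX went apart with time. In Ota cells GAL fell by 1.14 ± 0.30 (limma adjusted p = 0.00597), a value of -0.21 with the spike-in scaling, which ended that call. In control cells it fell by 4.15 ± 0.30 (limma adjusted p = 3.87e-06), and this difference ranked 2 from the bottom of all genes. The 72 h control arrays were under 4, so the size of that fall is uncertain. SPX fell by 3.05 ± 0.24 in Ota cells (limma adjusted p = 1.72e-06), while in control cells it rose by 1.73 ± 0.24 (limma adjusted p = 3.18e-04).

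ADM rose by 0.61 ± 0.20 in Ota cells (limma adjusted p = 0.0209), which did not pass with centring (0.33), quantile normalization (0.37) or a fit of the 6 Ota arrays alone, and was higher by 0.50 ± 0.20 at 72 h in control cells (limma adjusted p = 0.0927). The Ota call ended without Ota replicate 2 of 24 h (0.45, limma adjusted p = 0.0739) or Ota replicate 1 of 72 h (0.48, limma adjusted p = 0.0899). The control value passed without Ota replicate 2 of 24 h (limma adjusted p = 0.0486) or control replicate 2 of 24 h (0.66, limma adjusted p = 0.0484), and also with array weights (0.62, limma adjusted p = 0.00214) and with the 6 control arrays alone (limma adjusted p = 0.0459). INHBA differed by 0.15 ± 0.25 in Ota cells (limma adjusted p = 0.638). That value depended on the probe set and the scaling: it passed with the mean over probe sets (0.86, limma adjusted p = 0.0101), without probe sets ending in _s_at or _x_at (1.57, limma adjusted p = 0.00198) and with the spike-in scaling (1.07, limma adjusted p = 0.0136). INHBA fell by 0.85 ± 0.25 in control cells (limma adjusted p = 0.0284), to 72 h arrays near the filter level, so the size is uncertain. Its control fall did not pass with the spike-in scaling (-0.89), no filter, no _s_at or _x_at probe sets (-0.69) or the 6 control arrays alone, nor without control replicate 1 (-0.66) or 3 (-0.68) of 24 h, nor without control replicate 1 (-0.87), 2 (-0.83) or 3 (-0.85) of 72 h.

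In these comparisons over time 3 of the 6 genes rose and 2 fell in Ota cells, where 60.3% of all genes passed (37% rose, 23.3% fell). In control cells 3 also rose and 2 fell, where 25.5% of all genes passed (12.2% rose, 13.3% fell). The arrays of both times did not overlap for 5 genes in Ota cells, against 62.1% of all genes (37.4% higher, 24.7% lower), and for all 6 in control cells, against 53.5% (26.4% higher, 27.1% lower). The comparisons over time share their arrays with those of Ota against control, whose results were known when the genes were chosen. Their adjusted p-values therefore describe these arrays and are no independent evidence.

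**Figure D3:**
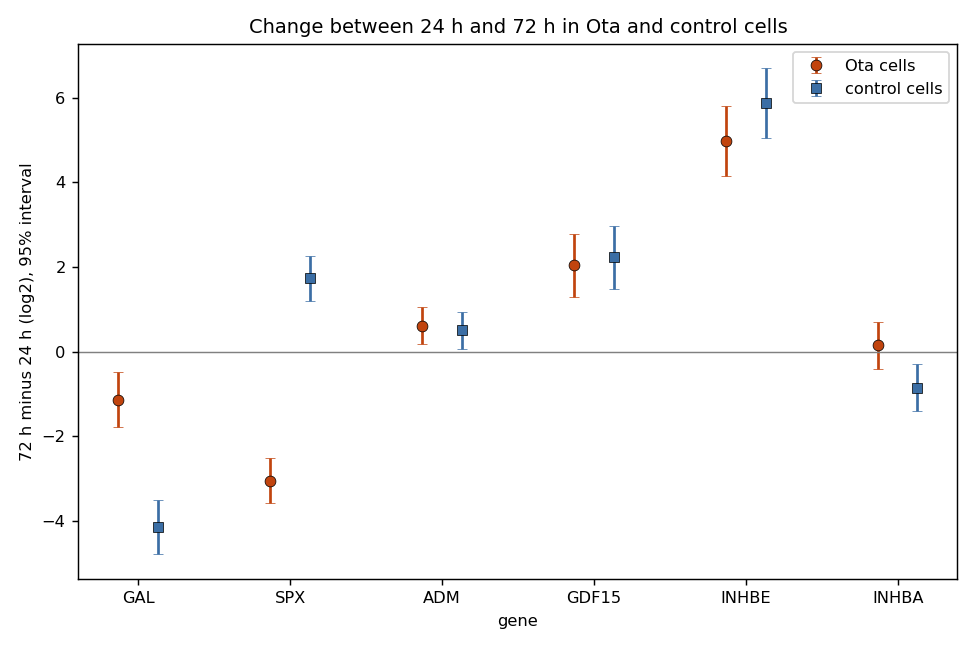
Difference of 72 h minus 24 h (log2, y axis) in Ota cells (circles) and control cells (squares) for 6 genes (x axis), with 95% intervals from the fit. INHBE rises most in both, SPX falls in Ota cells and rises in control cells, and GAL falls by more in control cells.

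Across the 12 arrays each gene had close companions, given as a description since all arrays share the groups. GAL followed TGFBI (Pearson r = 0.986) and ACOT7 (0.984), and SPX followed CRNDE (0.987) and GPR143 (0.982). ADM followed the histone gene H2BC12 (0.987) and TIPRL (0.985). INHBE followed HSPA5, which encodes the endoplasmic reticulum chaperone BiP (0.985), and GFPT1, the first enzyme of the hexosamine pathway (0.985). GDF15 followed PMAIP1, which encodes the cell death protein NOXA (0.951), and ZDBF2 (0.949). INHBA had the weakest likeness, to POLR1G (0.935) and TOP3B (0.907). Among the genes themselves GAL and INHBE ran oppositely (r = -0.873), as did SPX and ADM (-0.839).

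The genes that receive, process or accompany these hormones were taken as 5 lists, 107 genes in all, of which 39 were tested. Of these, 11 rose and 9 fell with Ota at 72 h and 18 rose and 5 fell at 24 h. Over all genes 24.8% rose and 35.2% fell at 72 h, and 20.8% rose and 40.5% fell at 24 h. Genes that passed the filter through 1 group alone had to differ, so the counts are no support for a list. The lists too were chosen with results of these arrays known, so the adjusted p-values of their genes, taken over all genes tested, describe these arrays and are no independent evidence.

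Receptors of the peptide hormones were mostly at or under the filter level. Of 14 receptor genes 12 had a probe set, and CALCRL alone passed the filter. It encodes the receptor that binds adrenomedullin together with RAMP proteins. It averaged 3.99 ± 0.0071 (SD, n = 3) on Ota arrays at 72 h, against values of 5.99, 4.14 and 4.98 on control arrays, and it fell by 1.05 ± 0.34 (limma adjusted p = 0.0187). Without control replicate 1 of 72 h the value was -0.58 and did not pass (limma adjusted p = 0.0562). Centring (-0.77), no filter on low values and a fit of the 6 arrays of 72 h alone also ended the call. At 24 h it differed by -0.18 ± 0.34 (limma adjusted p = 0.66). The galanin receptors GALR1, GALR2 and GALR3, the endothelin receptor EDNRB, PTH1R and RET, the co-receptor of GFRAL, did not pass the filter.

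Of 15 genes for activin receptors, SMADs and their regulators, 12 were tested. At 72 h 4 rose and 2 fell, with a median of 0.12 against -0.11 for all genes, and at 24 h 4 rose and 3 fell, with a median of -0.18 against -0.24. ACVR1C, a type I receptor also called ALK7, had values of 5.49, 4.54 and 5.04 on Ota arrays at 24 h, and between 2.33 and 2.37 on the 9 others, so it passed the filter through Ota cells of 24 h alone. The filter therefore fixed its difference at 24 h in advance, and no test of it is given. The type I receptors ACVR1 and ACVR1B moved the other way at 24 h. ACVR1 had 6.90, 4.71 and 7.38 with Ota, against 9.63, 9.12 and 9.45 in controls, and fell by 3.07 ± 0.51 (limma adjusted p = 2.61e-04). ACVR1B fell by 2.44 ± 0.31 (limma adjusted p = 3.70e-05). At 72 h these receptors were at 0.32 ± 0.51 and -0.28 ± 0.31.

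Both inhibitors named from this list, BAMBI and SMAD7, had differences of opposite sign at 72 h. BAMBI, a decoy receptor without kinase activity, had values of 8.07, 8.56 and 7.93 with Ota, against 10.75, 11.12 and 10.96 in controls. It fell by 2.75 ± 0.20 (limma adjusted p = 4.42e-07). SMAD7, which inhibits the pathway from within, was higher by 1.43 ± 0.20 (limma adjusted p = 6.98e-05), though not past the threshold with the spike-in scaling (0.54). TGFBR3, a co-receptor that binds inhibin, rose by 1.83 ± 0.28 (limma adjusted p = 1.61e-04). ACVR2B was lower by 0.43 ± 0.15 (limma adjusted p = 0.0235), a call that ended with centring (-0.15), with quantile normalization (-0.21) and, among the 72 h arrays, without Ota replicate 1 (-0.35) or 3 (-0.42) or without control replicate 1 (-0.42) or 2 (-0.36). SMAD3, which carries activin signals, was higher by 1.21 ± 0.29 at 24 h (limma adjusted p = 0.00334), but its value there was -0.64 once arrays were set to equal spike-in levels.

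Of 15 genes for processing 10 were tested. At 72 h 3 rose and 3 fell, and at 24 h 6 rose and 1 fell. SCG5, a chaperone of the convertase PC2, went opposite ways. It had values of 3.94, 3.57 and 4.79 with Ota at 72 h, against 6.48, 6.25 and 6.54 in controls, and fell by 2.33 ± 0.30 (limma adjusted p = 3.63e-05). At 24 h it had 3.80, 4.20 and 4.80 with Ota, against 2.49, 2.43 and 2.44 in controls, 1.81 ± 0.30 higher (limma adjusted p = 2.46e-04), but -0.040 with the spike-in scaling. Those 24 h controls were near background, and the SCG5 values of Ota cells at 72 h were near or under 4, so both sizes are uncertain. ECE2, an endothelin-converting enzyme, fell by 1.35 ± 0.34 at 72 h and 2.21 ± 0.34 at 24 h (limma adjusted p = 0.00461 and 1.47e-04). Its Ota arrays of 24 h read 3.63, 3.43 and 2.95, all under 4, so the 24 h size is uncertain. The protease genes MBTPS1 (0.96 ± 0.15) and CPD (0.86 ± 0.15) were higher at 72 h (limma adjusted p = 1.39e-04 and 4.12e-04), but at 0.068 and -0.029 after that rescaling. PCSK1N, an inhibitor of PC1, was higher by 1.32 ± 0.20 at 24 h (limma adjusted p = 1.43e-04), but at -0.53 with that scaling.

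Among the other peptide hormones, of 37 genes 9 were tested, of which, ADM5 counted, 3 rose and 0 fell at 72 h and 6 rose and 0 fell at 24 h. The 24 h rises also hold CHGB, which passed the filter through Ota cells of 24 h alone. By an unadjusted limma p under 0.05, 1 fell at 72 h and 0 at 24 h. ADM5, an adrenomedullin relative, had values of 8.09, 7.73 and 8.53 with Ota at 72 h, against 3.30, 3.36 and 3.50 in controls. All its control arrays were under 4 at both times, so it passed the filter through Ota cells alone and no test of it is given. Its log2 difference was 4.73 at 72 h and 2.42 at 24 h, set against near-background controls and so of uncertain size, or 0.57 at 24 h with the spike-in scaling. STC2, the stanniocalcin 2 gene, had 10.05, 10.41 and 9.84 with Ota at 72 h, against 7.21, 6.95 and 6.98 in controls, and rose by 3.05 ± 0.35 (limma adjusted p = 1.64e-05). At 24 h it rose by 4.41 ± 0.35 (limma adjusted p = 8.93e-07), and 1 of its 2 probe sets went that way. Its control arrays of 24 h read 4.41, 3.48 and 4.46, near the filter level, so the 24 h size is uncertain.

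Of 26 other TGF-beta ligands 7 were tested. At 72 h 1 rose and 3 fell, and at 24 h 2 rose and 1 fell. BMP4, a bone morphogenetic protein, was lower by 0.59 ± 0.18 at 72 h (limma adjusted p = 0.014), which did not pass with centring (-0.31), nor, of the 72 h arrays, without Ota replicate 3 (-0.51) or without control replicate 2 (-0.44). At 24 h it was higher by 1.50 ± 0.18 (limma adjusted p = 2.15e-05), but at -0.35 with the spike-in scaling. BMP8B was higher by 0.96 ± 0.16 at 72 h (limma adjusted p = 3.26e-04), or 0.075 with that scaling, and GDF11 was lower by 0.86 ± 0.18 (limma adjusted p = 0.00137), though another of its probe sets gave 0.15. INHBC, the beta C chain, was higher by 0.90 ± 0.33 at 24 h (limma adjusted p = 0.0324), but at -0.95 with the spike-in scaling. Among the 24 h arrays that call ended without Ota replicate 1 (0.81) or 2 (0.91) or without control replicate 1 (0.82) or 2 (0.71), and it also ended with no filter. BMP2 was lower by 1.41 ± 0.54 at 24 h (limma adjusted p = 0.0391) with groups that overlapped. The call ended with quantile normalization (-1.05), centring (-0.85), no filter, the mean over probe sets (-0.76) and a fit of the 6 arrays of 24 h alone. Without Ota replicate 2 of 24 h its value was -0.66 and did not pass, nor did it without Ota replicate 1 (-1.55), control replicate 1 (-1.35) or control replicate 3 (-1.26) of 24 h or Ota replicate 2 of 72 h (-1.41).

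**Figure D4:**
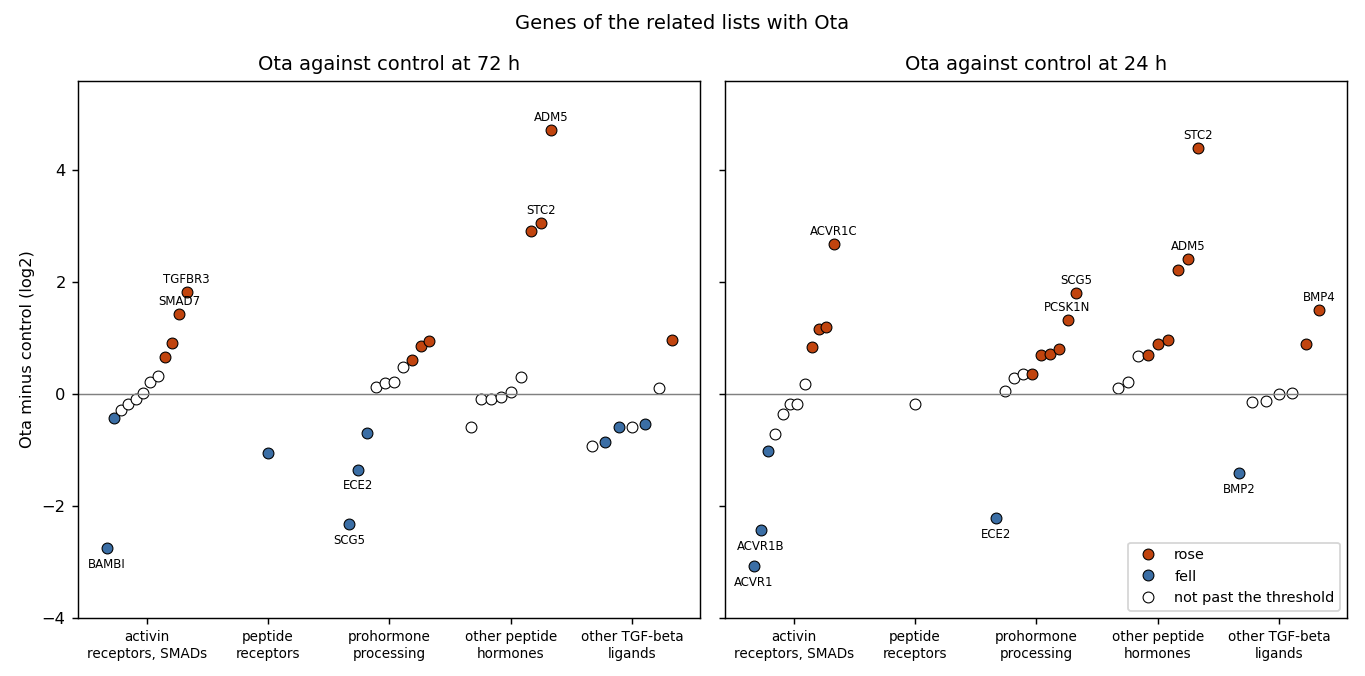
Ota minus control (log2, y axis) at 72 h and at 24 h for each tested gene (point) of the 5 related lists (x axis), as deposited; filled points passed limma's threshold upwards or downwards and open points did not. Named points moved by more than 1.3, among them ADM5 at 4.73 and BAMBI at -2.75 at 72 h.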

How the data were processed

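HK-2 cells in 4 groups of 3 arrays were compared, grouped by the labels. Per the labels, the authors deposited GCRMA values; these log2 expression values per probe set were used as deposited. GCRMA (the submitters' processing notes give no version of it) subtracts background by probe sequence and normalizes arrays to each other; which arrays were normalized together is not given in the sources used here. The table held 54675 probe sets, and the platform annotation gave 41097 of them exactly 1 symbol. Genes with such a probe set over 4 on at least 3 of 12 arrays were tested, each by its probe set of highest mean, which left 10729 genes.

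Group means were fitted with limma 3.58.1 in R 4.3.3 (residual degrees of freedom 8, prior 3.56). Two-sided p-values were adjusted by the Benjamini-Hochberg method across all 10729 genes, with 0.05 as the threshold. The fit was tested on simulated data. Array-wide measures were compared by exact permutation of 3 against 3 arrays. The members and lists were chosen with earlier results of these data known. The Ota comparisons of the members, which chose them, are given without p-values. Those of the related genes have adjusted p-values as a description, not as independent evidence. The same holds for the adjusted p-values of the members in the comparisons over time. The 9 members are named, up to 2 rises and 2 falls past the threshold per related list and Ota comparison, and for each tested member the 2 genes with the highest Pearson r over the 12 arrays.

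Arrays of equal replicate number deviated together at 24 h (r = 0.125, 0.231 and 0.271), by the rule of every pair over 0.1, but not at 72 h (r = -0.0522, 0.139 and 0.192). A replicate block, other scalings, filters, probe set choices, variance models and leaving out each array were tried as alternatives. Precision is limited by having 3 arrays a group. Genes that the annotation gives no single symbol were not analysed here.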

Additional observations from a re-analysis of the deposited data

Results flagged for a closer look

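The effect of Ota at 72 h differed from that at 24 h for 3 of the 6 hormone and activin genes tested and 17 of the 39 related genes tested, by the interaction term of the limma fit, where 49.5% of all genes passed. These counts lie near the share of all genes, so nothing is read from them. Most of the related genes had been named for passing in an Ota comparison. Among the hormone and activin genes the Ota effect differed for GAL (3.01), SPX (-4.78) and INHBA (1.00), given as log2 differences of the effects, 72 h minus 24 h. INHBA held this call in 4 of the 12 fits that leave out an array. These values describe genes that were chosen with results known. Among activin receptors and their regulators it differed for ACVR1 (3.39), ACVR1B (2.16), SMAD7 (1.25) and ACVR2B (0.59), and for ACVR1C (-2.67) and BAMBI (-2.39). Among the genes of hormone processing it differed for SCG5 (-4.14), CPE (-1.51) and PCSK1N (-1.13). Among other hormones and ligands it differed for ADM5 (2.31) and BMP8B (0.97), and for APLN (-1.50), STC2 (-1.36), CHGB (-1.06), BMP4 (-2.09), INHBC (-1.49) and GDF11 (-0.73). CPE, APLN and CHGB are named here after their values were seen. ACVR1C, ADM5 and CHGB passed the filter through Ota cells alone. SCG5, BMP4 and CPE (0.81 at 24 h, -0.70 at 72 h) lay above their controls at 24 h and below them at 72 h, each past the threshold at both times, though at 72 h BMP4 (-0.31) and CPE (-0.42) did not pass with centring. CHGB had values of 5.36, 4.81 and 4.415 on Ota arrays of 24 h and at most 3.90 on the others. The filter therefore fixed its rise at 24 h in advance, and no test of it is given. With the spike-in scaling SCG5 (-0.040), BMP4 (-0.35) and CPE (-1.04) were not above their controls at 24 h. The spike-in difference between Ota and control arrays was 0.89 at 72 h and 1.85 at 24 h, and its part in these values was not tested. The spike-in scaling raised the median difference of the effects over all tested genes by 0.96. With it the 24 h and 72 h values came close for PCSK1N (-0.53 and -0.70), CHGB (-0.88 and -0.98) and GDF11 (-1.98 and -1.75). For the related genes the difference between times was not checked under other settings, so their calls may depend on the scaling.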

How the results depend on the processing

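Scaling to the poly-A spike-ins, which lowers every Ota array against its control, changed most, and the cause was not tested. With it 0 hormone and activin genes were past the threshold upwards at 24 h, and 1 fell with time in Ota cells and 1 in control cells. Of the related genes 2 rose and 30 fell at 24 h and 4 rose and 23 fell at 72 h. Of all genes 94.9% then passed at 24 h (1.49% of them upwards) and 67.8% at 72 h (7.63% of them upwards). Over time 75.4% of all genes passed in Ota cells (91.3% of them upwards) and 11.9% in control cells (45% of them upwards). Nothing is read from these counts. It turned GDF15 (-0.40), SMAD3 (-0.64), TGFBR3 (-0.68), SMAD7 (-1.66), SCG5 (-0.040), PCSK1N (-0.53), MBTPS1 (-1.14), CPD (-1.16), BMP4 (-0.35), INHBC (-0.95), CPE (-1.04), APLN (-0.95) and CHGB (-0.88) at 24 h, and ACVR1C (-0.87), PCSK1N (-0.70) and CPD (-0.029) at 72 h, as well as INHBA (-0.51) and ACVR1 (-0.57) at 72 h, which passed the threshold neither way. Centring gave 4 related falls at 72 h, where 63.3% of all genes passed (56.1% of them upwards). It put BMP8B at 0.55 at 24 h. ACVR1B turned to 0.44 at 72 h with the mean over probe sets, and GDF11 to 0.15 without probe sets ending in _s_at or _x_at. Leaving those probe sets out gave 4 related falls at 72 h and a filter at 6 gave 5, and no filter gave 35 related rises at 24 h. For the difference between times 1 gene, against 2, lay past the threshold upwards with quantile normalization (which put 2 there downwards), centring, no filter and a filter at 6. In control cells 1 gene, against 2, fell with time with no filter, a filter at 6, without _s_at and _x_at probe sets and with the 6 arrays alone. Leaving out each array in turn gave 1 to 2 for both of these counts, and the gene lost was INHBA. The other counts of hormone and activin genes moved by at most 1. The replicate block changed no call of a gene named above (INHBA in control cells, 72 h against 24 h: -0.85 with it, limma adjusted p = 0.0243).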
